A study of Homo sapiens with 2 samples.

Results

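The S100 proteins are small calcium-binding proteins, and 9 of their genes are described here in A549 cells: S100A2, S100A4, S100A6, S100A9, S100A10, S100A11, S100A13, S100A16 and S100P. They were taken by exact gene name from 12936 named genes, and the list was drawn up with the values of both libraries known. The values that chose them are therefore given as a description and support no test. A549 is an established human lung adenocarcinoma line. The series holds 1 library of cells labelled wild type and 1 library of cells labelled MYOCD knockdown, both grown in DMEM with serum, and the knockdown sample is also titled MYOCD-/-. MYOCD encodes myocardin, a coactivator of serum response factor in muscle. Both samples are labelled with 72 h of doxycycline, whereas the series' design describes wild type cells with no treatment. A difference between the libraries therefore cannot be told apart from one between treated and untreated cells if only the knockdown cells received the drug. The sources used here do not say how the knockdown was made, or whether the cells were 1 clone or a pool.

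S100 proteins carry a pair of EF-hands, the helix-loop-helix motif that holds a calcium ion. Most form dimers that open a hydrophobic face when calcium binds and then grip a target protein, often an annexin or a cytoskeletal protein. Some members leave the cell and act on surface receptors such as RAGE. In lung adenocarcinoma, several members are known as proteins of migrating and invasive cells, whereas S100A8 and S100A9 are best known from neutrophils and monocytes.

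Levels are in RPKM, which divides reads by the length of the transcript and the size of the library, and without counts the depth is unknown. With 1 library per group no value has a replicate error, no difference was tested, and no order of neighbouring levels can be set against a spread. A difference is the log2 of knockdown RPKM + 1 over wild type RPKM + 1, in which a value of -1 is 2-fold lower in the knockdown library. MYOCD itself had 0.881 RPKM in wild type and 0.400 in knockdown cells. It was close to the lowest locus of the table, which had 0.652 RPKM in its higher library. Of the lung epithelial markers, KRT7, KRT8 and KRT18 were between 1395 and 1776 RPKM in both libraries. CDH1 had 23.8 and 22.5 RPKM, EPCAM 2.24 and 2.15 and NAPSA 1.27 and 0.771, while the surfactant genes SFTPB and SFTPC and the lineage factor NKX2-1 were not measured here. In these bulk samples, fewer cells of a type and less RNA per cell cannot be told apart.

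Of the 9 S100 genes, S100A9 and S100P were much lower in the knockdown library, and the others had more similar levels in both libraries. S100A9, a subunit of calprotectin, went from 20.6 to 7.48 RPKM, which left 36.3% of the wild type level. S100P, a ligand of RAGE and of the membrane linker ezrin, went from 22.2 to 9.31 RPKM, which left 41.9%. The other 7 genes lay between 82.6% and 126% of their wild type levels. All 9 averaged 1 RPKM or more over both libraries, the level asked of genes in the counts. By the 2-fold size rule 2 of the 9 were lower and 0 higher, beside 0.724% of 12158 genes lower and 0.65% higher (0.354% and 0.141% of 9895 protein-coding genes). Since those same values chose the genes, nothing is read from that contrast. The median difference of the 9 was 0.13, beside 0.01 for all genes.

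**Figure D1:**
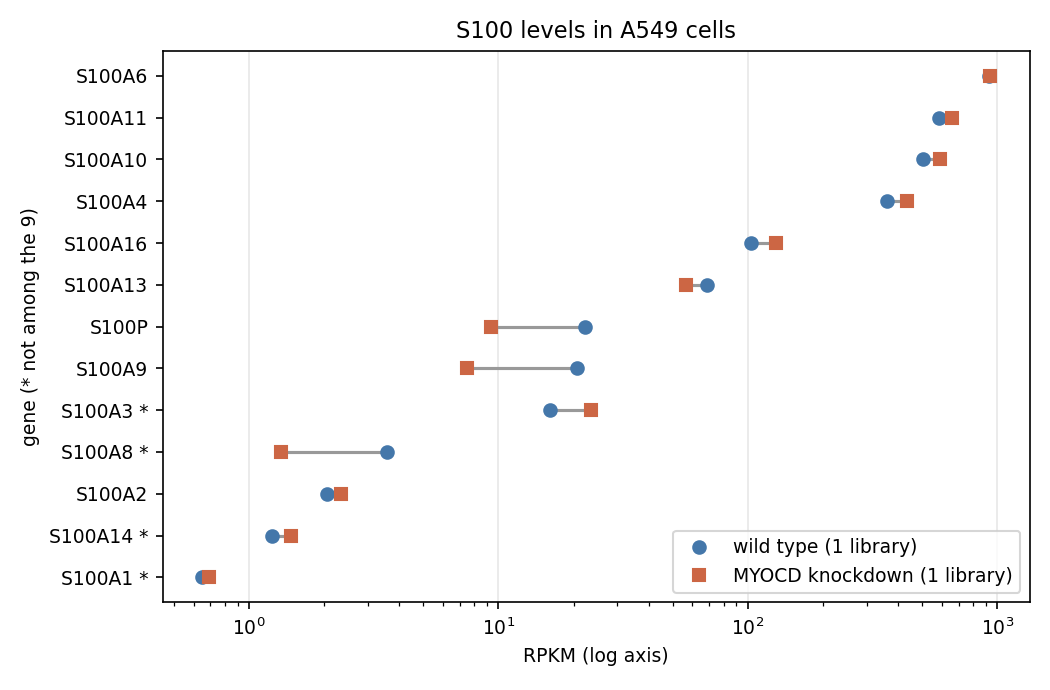
RPKM on a log axis of the 9 S100 genes and 4 other measured S100 genes (asterisk), with 1 circle for the wild type library and 1 square for the knockdown library. S100A9, S100P and S100A8 show the wide gaps, while the genes above 50 RPKM have nearly overlapping symbols.

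The levels of the 9 genes spanned a 452-fold range in the wild type library, from S100A2 to S100A6. S100A6 (calcyclin), which binds the ubiquitin ligase adaptor CACYBP, was the most abundant, with 926 RPKM in wild type and 939 in knockdown cells. It ranked 96 and 102 among all named genes, and its difference was 0.02. S100A11, a partner of annexin A1, had 585 and 657 RPKM, and S100A10 had 505 and 587. S100A10, also called p11, is the member that has lost calcium binding and sits permanently in its active shape in a complex with annexin A2. S100A4 (metastasin), which binds the heavy chain of non-muscle myosin IIA, had 360.2 RPKM in wild type and 433 in knockdown cells.

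S100A16, a widely expressed member, had 103 RPKM in wild type and 129.6 in knockdown cells, the highest difference of the 9 at 0.33. The differences of S100A4, S100A10 and S100A11 were 0.27, 0.22 and 0.17. These are small steps: the central 95% of all 12158 genes ran from -0.64 to 0.51, so all 4 lie inside it. S100A13, which takes part in the release of the growth factor FGF1 without a signal peptide, had 68.7 RPKM in wild type and 56.7 in knockdown cells. Its difference of -0.27 was the only one below 0 among the 6 genes with a mean above 50 RPKM. S100A2, a member of basal and squamous epithelia that binds p53, was scarce at 2.05 and 2.34 RPKM. KRT5, KRT14, TP63 and the other 4 squamous markers looked for were not measured here.

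Because the abundant genes hold nearly all of the family's message, the sum hardly follows S100A9 and S100P. The 5 highest genes held 95.6% of the summed RPKM of the 9 in wild type and 97.3% in knockdown cells. That sum was 2592 RPKM and 2822 RPKM, respectively. S100A9 and S100P together gave 42.8 RPKM, or 1.65% of the sum, in the wild type library and 16.8 RPKM, or 0.595%, in the knockdown library. The knockdown sum was 109% of the wild type sum as deposited. It was 108% with both libraries scaled to equal summed RPKM over named loci, and 107% with the median log2 ratio set to 0. Of the scalings tried, only equal summed RPKM over all loci put it below the wild type sum, at 94.9%.

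**Figure D2:**
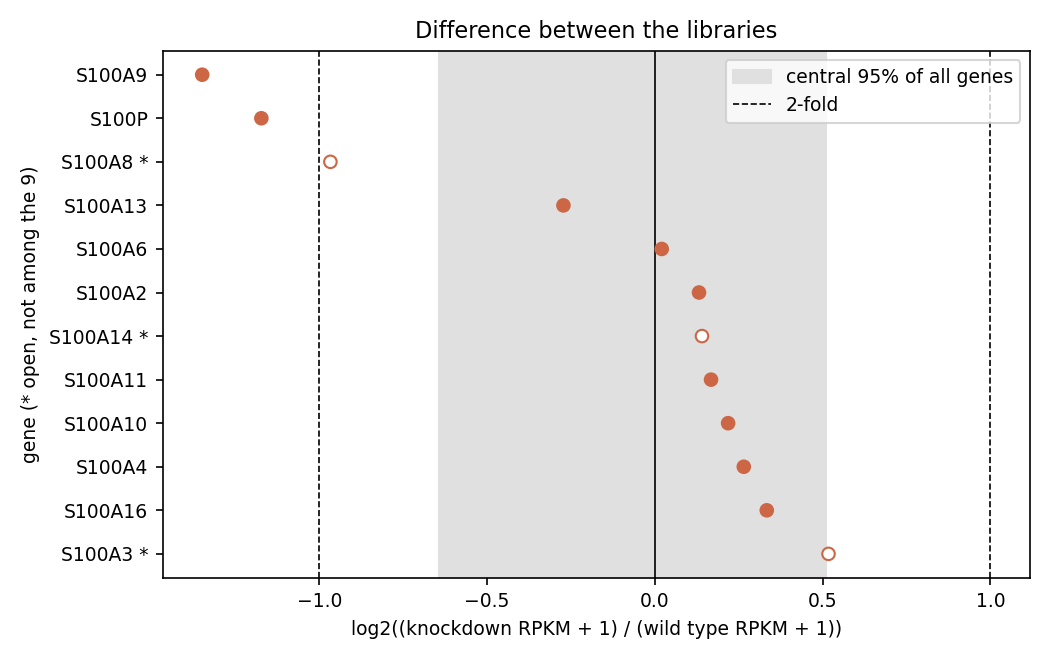
Difference between the libraries on the log2(RPKM + 1) scale for 12 S100 genes averaging 1 RPKM or more, filled for the 9 genes and open for the rest. The grey band is the central 95% of all 12158 genes, from -0.64 to 0.51: S100A9, S100P and S100A8 lie left of it, and S100A3, at 0.52, at its right edge.

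S100A8, the calprotectin subunit that pairs with S100A9, is not among the 9 and had 3.57 RPKM in wild type and 1.34 in knockdown cells. It was left with 37.5% of its wild type level, next to 36.3% for S100A9. The S100A8 level was 17.3% of the S100A9 level in wild type and 17.9% in knockdown cells, so the ratio of these RNA levels was nearly the same in both. The lowest locus of the table had 0.652 RPKM in its higher library, so S100A8 at 3.57 and 1.34 RPKM was scarce. The precision of this ratio, from 1 library per group, is therefore unknown. With a pseudocount of 1 the S100A8 difference was -0.97, just short of 2-fold, and with 0.1 it was -1.35. S100P, at -1.17, lay just inside the 2-fold rule. Of 12158 genes, 48 were as low as S100A9 or lower, and 62 as low as S100P or lower. Among 7748 protein-coding genes averaging 5 RPKM or more, S100A9 held place 7 and S100P place 13 from the lowest.

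Myeloid cells are the usual source of S100A8 and S100A9, and their markers were examined in the same libraries. Of 8 such markers, 3 were measured: CD14 had 3.13 and 3.30 RPKM, LYZ 0.575 and 0.800, and ITGAM 0.561 and 0.962. Their sum was 4.27 RPKM in wild type and 5.06 in knockdown cells. LYZ and ITGAM averaged under 1 RPKM and are too low to compare, and the part of myeloid cells in the S100A8 and S100A9 levels was not tested. PTPRC, CSF1R, FCN1 and MPO were not measured here, and CD68 had no line apart from a locus it shares with MPDU1. S100A12, the third S100 gene typical of neutrophils, was not measured here either.

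The promoters of the lower genes are shown because S100A9, S100A8 and S100P were low together although S100P lies on another chromosome. Each is the 250 bases before an annotated RefSeq start (GRCh38.p14), on the gene's own strand, and S100A6 is shown for contrast as the most abundant gene with no comparable difference. The windows are chr1:153357604-153357853 on the plus strand for S100A9 and chr1:153391074-153391323 on the minus strand for S100A8, at the middle one of its 3 listed starts. S100P is chr4:6693628-6693877 on the plus strand and S100A6 is chr1:153535992-153536241 on the minus strand. Capitals mark a TATA box (TATAAA) or a C/EBP site (TTNNGNAA), read on either strand. No marked stretches overlap in these windows.
S100A9: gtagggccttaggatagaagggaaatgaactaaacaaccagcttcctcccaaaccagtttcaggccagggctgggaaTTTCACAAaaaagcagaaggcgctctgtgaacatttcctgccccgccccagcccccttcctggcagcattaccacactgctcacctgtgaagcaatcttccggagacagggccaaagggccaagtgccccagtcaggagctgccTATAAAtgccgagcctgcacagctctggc
S100A8: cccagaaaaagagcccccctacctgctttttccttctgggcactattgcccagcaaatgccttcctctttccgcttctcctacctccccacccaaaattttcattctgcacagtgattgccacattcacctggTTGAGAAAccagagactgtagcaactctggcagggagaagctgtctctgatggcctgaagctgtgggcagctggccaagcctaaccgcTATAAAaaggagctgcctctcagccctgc
S100P: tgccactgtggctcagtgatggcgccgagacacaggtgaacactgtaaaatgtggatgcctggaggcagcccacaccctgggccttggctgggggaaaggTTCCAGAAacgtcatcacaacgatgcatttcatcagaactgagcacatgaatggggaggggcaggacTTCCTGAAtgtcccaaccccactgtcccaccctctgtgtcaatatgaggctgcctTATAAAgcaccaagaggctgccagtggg
S100A6: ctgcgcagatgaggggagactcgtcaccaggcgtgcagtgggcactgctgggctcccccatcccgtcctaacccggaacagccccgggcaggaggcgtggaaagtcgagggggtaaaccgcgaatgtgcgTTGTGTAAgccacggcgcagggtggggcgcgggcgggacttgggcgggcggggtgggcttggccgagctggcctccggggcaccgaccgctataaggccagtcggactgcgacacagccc

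A TATA box begins 29 bases before the start in S100A9, 29 in this window of S100A8 and 28 in S100P. It lies at a like distance in S100A13 (29 bases, at 1 of its 3 starts) and S100A4 (31 bases), whose differences were -0.27 and 0.27. At any place and on either strand, TATAAA occurs in 10.7% of all 35116 promoter windows of this length. The same holds for 6 of 19 windows of the 13 measured S100 genes. The share of windows with it 28 to 31 bases before the start was not counted. In the other S100A8 windows TATAAA was found at no place for the first start and 126 bases before the third. The third window overlaps the one shown and holds the same box, which is thus counted in both. In S100A6 the same region reads without an exact match. A C/EBP site occurs once in S100A9, once in the S100A8 window shown and in 2 places in S100P. The other S100A8 windows hold 0 and 2, of which 1 is the site shown. C/EBP sites also occur in S100A6, S100A11, S100A13 and S100A16, and in 33.2% of all windows. The CArG box, the site of serum response factor through which myocardin acts, was found in 0 of the 19 S100 windows and in 1.16% of all windows. The AP-1 site (TGANTCA, 6.57% of all windows) occurred in S100A2 and S100A3 and the NF-kB site (6.88%) in S100A14. These matches are letters in a window, and binding was not measured.

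The measured S100 genes other than S100P lie together on chromosome 1q21, which allows a look at neighbours. In GENCODE release 29 on GRCh38, S100A9 spans 153357854 to 153361027 on the plus strand of chromosome 1 and S100A8 spans 153390032 to 153391188 on the minus strand. S100P spans 6693069 to 6697170 on the plus strand of chromosome 4. Between the outermost of the 8 genes on chromosome 1, a stretch of 1651 kb, RefSeq places 94 genes, of which 63 are protein-coding. Of these, 12 were measured, and all 12 are S100 genes. The 7 S100-fused genes of the stretch, such as FLG of the skin barrier, were not measured here.

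S100A9 and S100A8 stand next to each other among the measured genes, 29 kb apart and with opposite strands. S100A6, the next measured gene, begins 143 kb beyond S100A8 and differed by 0.02, and S100A11, 1310 kb on the other side of S100A9, differed by 0.17. The nearest measured genes outside the stretch, named after their values were seen, were THEM4 at 0.32, TDRKH at -0.18 and OAZ3 at -0.02 on one side, and SNAPIN at 0.12, ILF2 at 0.0030 and NPR1, which averaged under 1 RPKM, at 0.14 on the other. The lowest S100 values were thus those of 1 pair within the cluster, adjacent among the measured genes, and of S100P outside it.

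**Figure D3:**
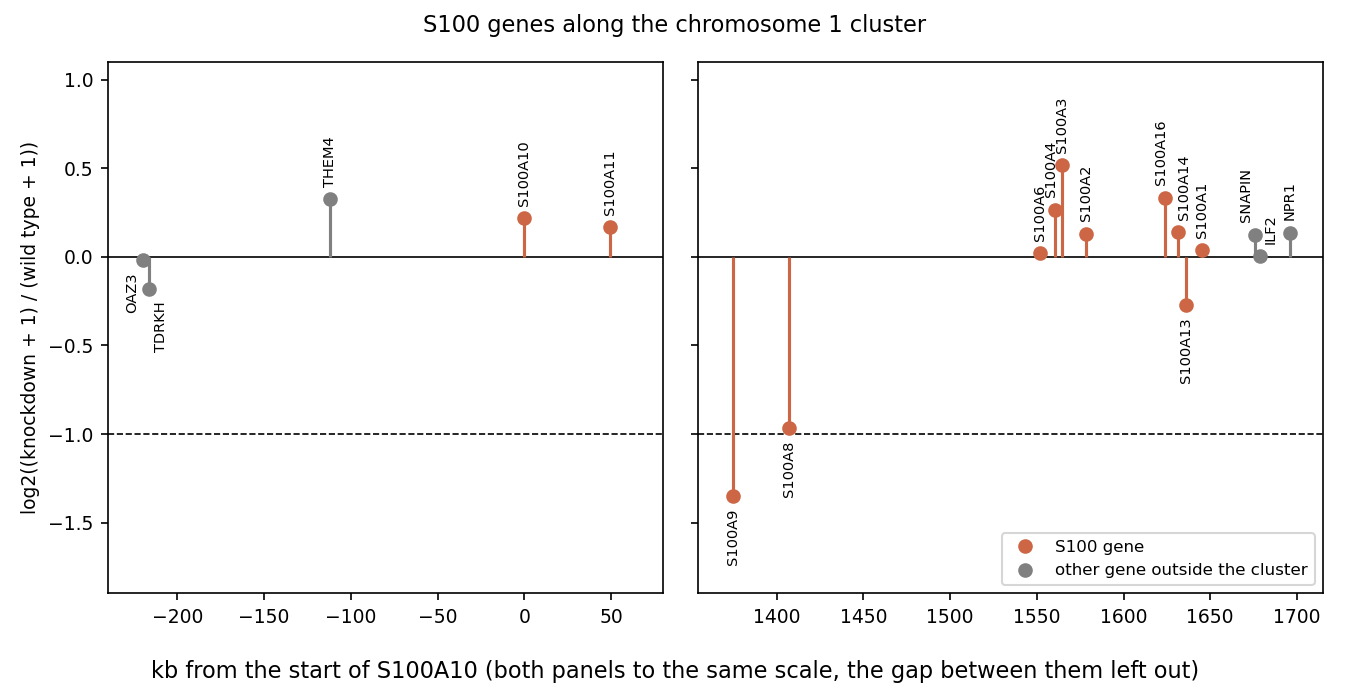
Difference on the log2(RPKM + 1) scale against distance in kb from the start of S100A10, for the S100 genes of chromosome 1 and the 3 nearest measured genes outside on each side. S100A9 (-1.35) and S100A8 (-0.97) are the deep bars, and S100A13 (-0.27) is the only other S100 bar below 0.

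Some of these loci overlap, and the sources used here do not say whether strand was used in counting. S100A13 and S100A1 overlap on opposite strands, so their reads may not be separable. S100A1, known from heart and muscle, had only 0.649 and 0.691 RPKM beside the 68.7 and 56.7 of S100A13. S100A3, a gene of the hair cuticle, lies within the annotated span of S100A4 on the same strand. Use of strand would thus not separate their reads, and S100A4 was far higher, at 360.2 and 433 RPKM. S100A3 was listed on 2 lines, with 14.03 and 21.2 RPKM on one and 2.11 and 2.35 on the other, summed here to 16.1 and 23.5. S100A14, an epithelial member, had 1.24 and 1.47 RPKM. No microRNA, small nucleolar or Cajal body RNA gene lies inside any of the 13 on the same strand. The other 8 of 21 S100 genes looked for, among them S100A7, S100B and S100G, were not measured here. Loci below 0.652 RPKM in both libraries are absent from the table.

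The 3′ UTRs of the S100 genes are short, from 71 bases in S100A8 to 648 in S100A16 in their longest annotated form, beside a median of 1393 over 9880 protein-coding genes. The bases AATATGC, a word picked in earlier work on these libraries because lower genes carry it often, occur in 11.6% of those genes and in 8 of 22 that were at least 2-fold lower and averaged 5 RPKM or more. The word was found in 0 of the 13 S100 genes, S100A9 and S100P included. Since the word was picked from these libraries, the 8 of 22 supports no test. UTRs this short leave little room for it, so nothing is read from its absence.

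Annexins, the membrane-binding proteins that several S100 dimers hold together, showed no difference past 2-fold: 0 of 10 were higher and 0 lower, with a median of 0.05. ANXA2, the partner of S100A10, had 1594 RPKM in wild type and 1782 in knockdown cells. The S100A10 level was 31.7% of the ANXA2 level in wild type and 33.0% in knockdown cells. For S100A11 and ANXA1 the ratio was less alike, 44.0% and 57.8%, with ANXA1 at 1329 and 1138 RPKM. ANXA3 and ANXA13 had the highest differences of these 10, 0.36 and 0.23, and ANXA1 and ANXA6 the lowest, -0.22 and -0.18. ANXA13 was scarce at 0.968 and 1.31 RPKM. ANXA10, at 0.42 with 0.520 and 1.04 RPKM, averaged under 1 RPKM and is not among the 10.

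Of the intracellular partners, 0 of 11 passed 2-fold, with a median of 0.06. MYH9, the myosin heavy chain bound by S100A4, had 123 and 147 RPKM, and the S100A4 level was 293% of it in wild type and 295% in knockdown cells. MYH9 and AHNAK, a large scaffold bound by S100A10 with annexin A2, were the highest at 0.26 each. CACYBP, the partner of S100A6, was the lowest at -0.39, with 55.2 and 41.9 RPKM, and the vesicle calcium sensor SYT1 followed at -0.30. EZR, the ezrin gene, had 111 and 120.4 RPKM, so S100P was 20.1% of the level of this partner in wild type and 7.73% in knockdown cells. S100PBP, named for its binding to S100P, had 10.2 and 8.25 RPKM.

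Receptors for secreted S100 proteins had differences below 0 in 5 of 5 measured genes, beside 47.9% of all genes. Their median was -0.38, and 0 passed 2-fold. All of them lay inside the central 95% of all genes, from -0.64 to 0.51. Over the 8 alternative settings their median ran from -0.58 to -0.21, the latter over genes averaging 5 RPKM or more. AGER, which encodes RAGE, the receptor of S100P and S100A9 among others, had 2.42 RPKM in wild type and 1.34 in knockdown cells, a difference of -0.55. At such low levels the precision of this difference is unknown. BSG (basigin), an S100A9 receptor, had 437 and 336 RPKM, and MCAM had 8.29 and 5.97. ALCAM and NPTN differed by only -0.01 and -0.04. TLR4, another receptor of calprotectin, was not measured here.

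**Figure D4:**
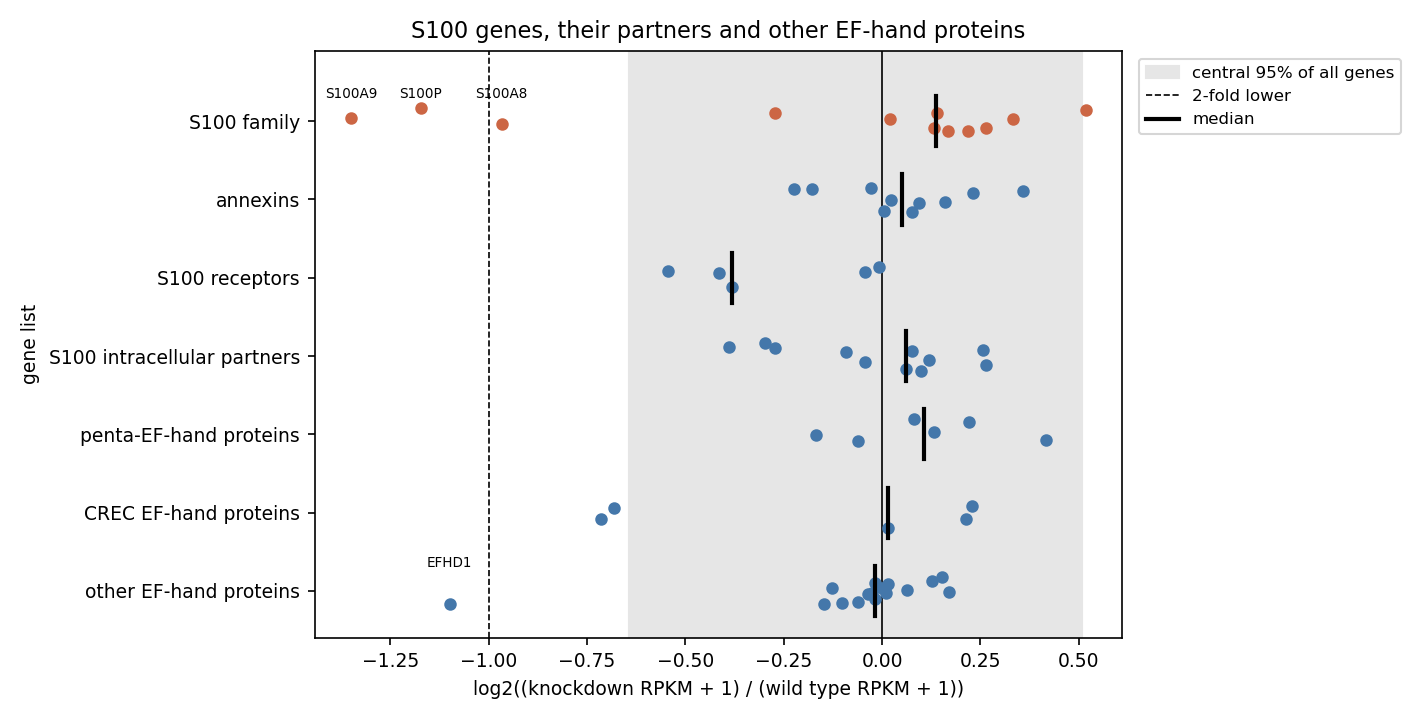
Difference on the log2(RPKM + 1) scale of each gene averaging 1 RPKM or more in 7 lists, with the list's median as a black bar and the central 95% of all genes in grey. Apart from the S100 genes, only EFHD1 in the lists drawn lies past 2-fold lower. Calmodulin genes, of which CALM2 (-1.18) was also past it, are not drawn.

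Other EF-hand proteins give the family's wider setting. Of the calmodulin genes, CALM2 had 825 RPKM in wild type and 363 in knockdown cells, while CALM3 had 246 and 347. CALM2 was past 2-fold lower at -1.18, close to S100P at -1.17, and CALM3 was at 0.49. CALM2 was left with 43.9% of its wild type level, next to 41.9% for S100P. Of 6 penta-EF-hand genes 0 passed 2-fold, with a median of 0.11. CAPN2, a calpain protease, was the highest at 0.42 and SRI, sorcin, next at 0.22, with PEF1 and CAPN1 the lowest at -0.17 and -0.06. Of 5 CREC genes, whose products reside in the secretory pathway, 0 passed 2-fold, with a median of 0.01. RCN3 and RCN1 were the lowest at -0.71 and -0.68, the latter with 101.4 and 62.9 RPKM, and RCN2 and CALU the highest at 0.23 and 0.21. Among 16 further EF-hand genes, 1 was 2-fold lower, EFHD1 of the mitochondrial inner membrane, with 5.69 and 2.12 RPKM. NUCB1 was next at -0.15, CETN2 and EPS15 were the highest at 0.17 and 0.15, and the median was -0.02.

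The genes most like S100A9 and S100P were sought by the distance between their log2 RPKM values over the 2 libraries, which is a match of level and difference at only 2 points. For S100A9 they were SGPP1, a phosphatase of sphingosine phosphate, with 20.3 and 7.61 RPKM (distance 0.035), then S100P (0.33) and ARHGAP18 (0.36). For S100P they were PLIN2, a coat protein of lipid droplets, with 20.3 and 10.4 RPKM (distance 0.21), XYLT2 (0.27) and CBS (0.30).

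The sign of 3 small differences depended on the scaling. When both libraries were scaled to equal summed RPKM over all loci, the median of all genes moved by -0.18. S100A10 then differed by 0.02, S100A4 by 0.07 and S100A16 by 0.14, and S100A11 (-0.03), S100A2 (-0.0048) and S100A6 (-0.18) changed sign. S100A13 was at -0.47, S100A9 at -1.53 and S100P at -1.36 in that setting. Relative to the median of all genes there, S100A16 stood at 0.31, S100A4 at 0.24, S100A10 at 0.19 and S100A11 at 0.14. That sum includes the unnamed loci, which were left out elsewhere. With equal sums over named loci only, S100A11 was at 0.16, S100A2 at 0.13 and S100A6 at 0.01.

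**Figure D5:**
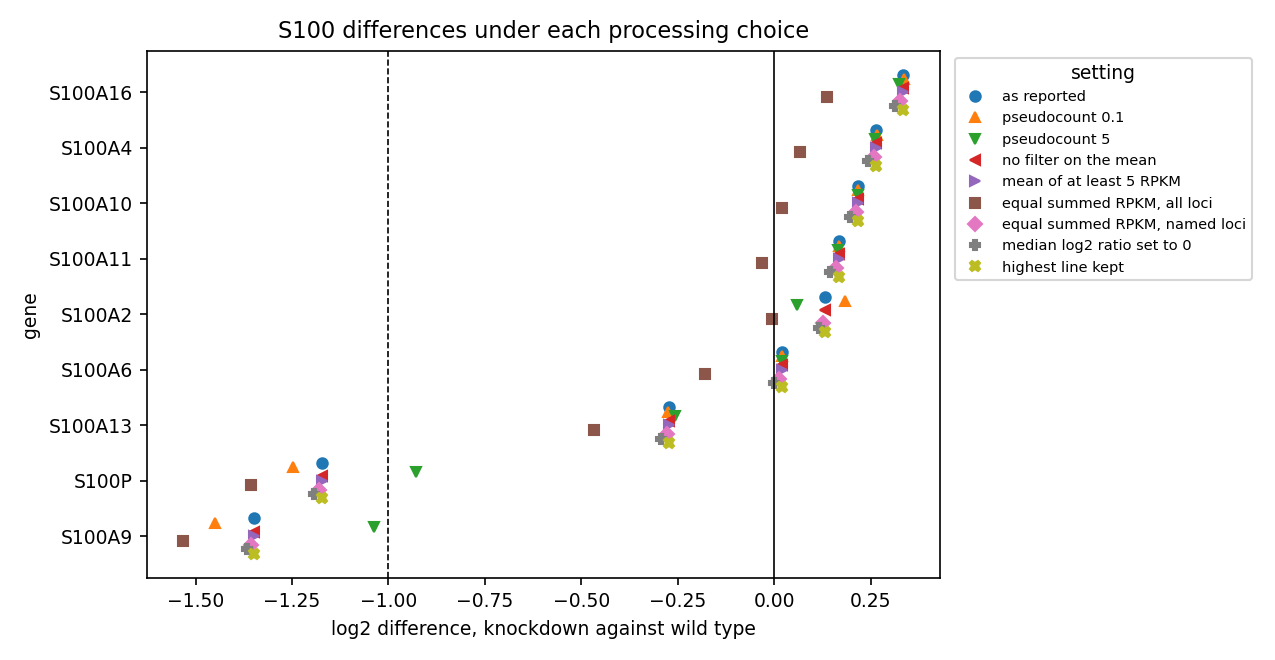
Difference of each of the 9 S100 genes in log2 units as reported and under 8 alternative settings, 1 symbol per setting. S100A9 stays left of the 2-fold line in each setting, S100P crosses it only with a pseudocount of 5 (-0.93), and equal sums over all loci shift every gene to the left.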

How the data were processed

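RNA-seq of 2 libraries of A549 cells, 1 per group, was analysed. The deposited values are RPKM, computed by the authors. The tools named per the submitters' processing notes are TopHat2 2.0.10 and Cufflinks 2.2.1, with GRCh38.p12 and the fruit fly build BDGP5 as genomes and no role stated. The sources used here do not give the annotation, filters or use of strand. Unnamed loci (1909 of 14952) were left out, and lines of 1 name were summed. Genes were matched by the exact listed symbol, so a gene under an older name or in a locus shared by several genes is not counted as measured. Differences are log2 with a pseudocount of 1, over genes averaging 1 RPKM or more. With 1 library per group no test was made, and no counting interval could be set without counts. The calculation was tested on simulated data.

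The S100 genes, the lists and the rule for named genes were chosen with earlier results of these data known. The rule takes MYOCD, every measured S100 gene, 6 binding partners, the 2 highest and 2 lowest genes of each other list, and the 3 protein-coding genes nearest in level to S100A9 and to S100P. Genes outside it (flanking genes, further list and marker genes) were named after their values were seen, as were the motifs and the UTR word. All 13 S100 genes were found in RefSeq promoters (GRCh38.p14). Protein-coding genes are those named by a current RefSeq symbol of that type. Of the listed genes, 1 is not reported here. Python 3.11.15, numpy 2.4.6 and pandas 2.3.3 were used.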

Additional observations from a re-analysis of the deposited data

How the results depend on the processing

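Of 8 alternative settings, S100A9 was 2-fold lower in each, with differences from -1.53 to -1.04. S100P was 2-fold lower in 7 and at -0.93 with a pseudocount of 5, where 1 of the 9 genes was 2-fold lower. S100A8 passed 2-fold at -1.35 with a pseudocount of 0.1 and at -1.10 with equal sums over all loci. The count of all genes 2-fold lower, 88 as reported, was 189 with a pseudocount of 0.1, 53 with 5 and 148 with equal sums over all loci, where 69 were higher. Equal sums thus gave 31.8% of calls as higher, against 47.3% as reported, and pseudocount 0.1 gave 37.0%. Equal sums over all loci also turned S100A2 to -0.0048, S100A6 to -0.18, S100A11 to -0.031 and the median of the 9 to -0.031. The medians of annexins, intracellular partners, penta-EF-hand and CREC genes became -0.12, -0.14, -0.080 and -0.18, and that of all genes -0.17. With the median log2 ratio set to 0, S100A6 was at -0.00080, the CREC median at -0.0068 and that of all genes at -0.0087. The scaling itself moves every gene alike before the pseudocount. S100A2 gave no value with a mean of at least 5 RPKM, nor did S100A8. No paired analysis was possible because each group has 1 library and no test was made. Depth is unknown, so precision at low levels, such as that of S100A8 and S100A2, could not be set.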
